A study of Mus musculus with 35 samples.

Results

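The effect of poly(I:C)c on PMN-MDSC sorted from orthotopic pancreatic tumors was analysed in 8 of the 35 RNA-seq libraries of the series, 4 from treated and 4 from untreated mice, chosen by the organ, population and treatment marks in the column names of the count table. PMN-MDSC are polymorphonuclear myeloid-derived suppressor cells, the neutrophil-like arm of the myeloid cells that expand in tumor-bearing hosts and restrain T cells. All mice carried tumors of T110299, a single pancreatic cancer cell line derived from a genetically engineered mouse (with Ptf1a-Cre and Trp53 fl/R172H among its alleles), implanted in the pancreas of C57BL/6 animals. Treated mice received poly(I:C)c, which is 50 µg of the double-stranded RNA analog poly(I:C) complexed with polyethylenimine at an N/P ratio of 6, intravenously on days 18 and 20. The control mice are labelled untreated, and the study's text describes them for this experiment as left untreated while its general methods name glucose for controls. No group received the carrier alone, so effects of the RNA and of its carrier cannot be told apart. Cells were enriched with CD11b beads and sorted as CD11b+ Ly6C lo Ly6G+, and 1 library stood for 1 mouse.

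Double-stranded RNA in the cytosol is sensed by the RIG-I-like receptors RIG-I (Ddx58) and MDA5 (Ifih1), which signal through MAVS to induce type I interferon. Secreted interferon then acts through its receptor, JAK kinases and a STAT complex with IRF9 that binds the interferon-stimulated response element, and a large set of interferon-stimulated genes follows. Their products degrade or sequester viral RNA, tag proteins with ISG15 and raise antigen presentation on MHC class I. In neutrophils and macrophages these programs are known to run beside those for granule contents, chemokines and antigen presentation on MHC class II.

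The libraries held 1648775 to 2502390 counts in the untreated group and 2192320 to 3652121 in the treated group, and 8308 genes had a mean of at least 25 counts and were tested. Levels are given as CPM, a gene's counts scaled to a common total over the tested genes with TMM factors, in the order of the libraries in the table (library 1 to 4 of each group). Log2 fold changes (treated minus untreated) carry an SE, computed as their absolute value divided by the square root of edgeR's F statistic. The words "rose" and "fell" are used only for genes with an adjusted p under 0.05 in edgeR's quasi-likelihood test. Between libraries of a group, counts differed by more than sampling noise (chi-square per degree of freedom 6.31 to 34.5). On the first principal component, untreated libraries 1 to 4 lay at −37.9, −19.4, −16.9 and −13.6. Treated libraries 1 to 4 lay at −1.79, 4.69, 27.5 and 57.4. On the second component, treated libraries 1 and 2 (−32.7 and −32.6) stood apart from treated libraries 3 and 4 (11.2 and 9.71). In both groups, libraries 1 and 2 had running numbers up to 16 and libraries 3 and 4 from 17. Splits between these pairs reported below therefore also follow the running number, and their cause was not tested.

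The sorted population was first compared with its defining markers, here as CPM of the library total. Ly6g, the gene of the sorting antigen, reached 0 to 9.19 in untreated and 5.02 to 76.2 in treated tumor PMN-MDSC libraries, against 34.5 to 84.7 and 226 to 335 in untreated and treated spleen PMN-MDSC. The summed level of 10 neutrophil markers was 2263, 5625, 5864 and 6063 in the untreated and 4401, 6776, 9062 and 11794 in the treated libraries, against 314 to 646 in untreated tumor M-MDSC (the monocytic population). The summed level of 12 macrophage and monocyte markers was 14107, 11491, 15527 and 14414 in the untreated and 20211, 20930, 13568 and 8574 in the treated libraries, against 7587 to 12654 in untreated and 8315 to 31561 in treated tumor M-MDSC, and 979 to 2458 in untreated spleen PMN-MDSC. Libraries labelled tumor PMN-MDSC therefore held more neutrophil transcripts than those labelled tumor M-MDSC, and macrophage transcripts within or above the range of untreated tumor M-MDSC. The macrophage sum exceeded the neutrophil sum in 7 of 8 libraries, all but treated library 4. It rested mostly on Apoe, apolipoprotein E (6929 to 9895 CPM of the library total in untreated and 4934 to 13354 in treated libraries). Without Apoe, a comparison added after seeing the data, it was 6240, 4562, 5632 and 5203 in untreated and 7763, 7576, 4616 and 3639 in treated libraries, above the neutrophil sum in 3 of 8. The study's methods describe the sorted tumor cells as mostly pure by flow cytometry, whereas Ly6g was low in untreated libraries sorted as Ly6G+. The name PMN-MDSC follows the labels, and the share of other cells in these libraries was not tested. Csf1r, Adgre1 and C1qa, which define macrophages, had medians of 1036, 361 and 586 CPM of the library total in untreated tumor PMN-MDSC and 1184, 232 and 211 in untreated tumor M-MDSC.

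**Figure D1:**
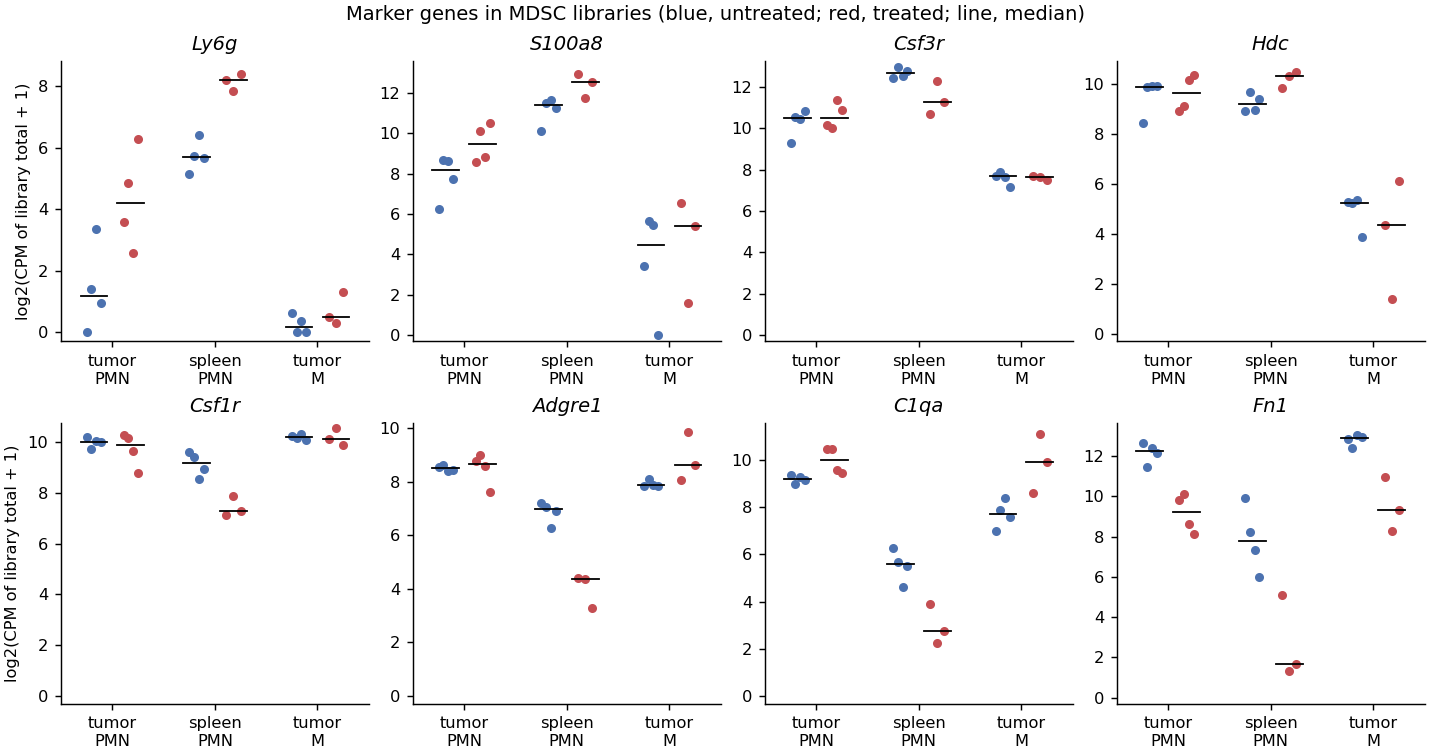
Marker genes as log2(CPM of the library total + 1) on the y axis for each library (points) and the group median (line), untreated in blue and treated in red, in tumor PMN-MDSC, spleen PMN-MDSC and tumor M-MDSC. The neutrophil genes Csf3r and Hdc set tumor PMN-MDSC apart from tumor M-MDSC, whereas Ly6g lies below its level in spleen in libraries of the same treatment, and the medians of Csf1r, Adgre1 and C1qa lie above those of spleen.

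Within the tumor PMN-MDSC libraries, 0 of the 10 neutrophil markers passed edgeR's test between treated and untreated (4 at an unadjusted p under 0.05, 1 in DESeq2), although all 10 had a positive log2 fold change (median 0.81). Of the 12 macrophage and monocyte markers, Ly6c2 rose and Ccr2 fell (4 higher and 2 lower at an unadjusted p under 0.05, 3 and 2 in DESeq2). Members that did not pass ranged from C1qa (log2 fold change 0.81 ± 0.23, adjusted p by edgeR = 0.0918) through Adgre1 (0.00 ± 0.22) and Csf1r (−0.23 ± 0.26) to Mrc1 (−0.83 ± 0.25, adjusted p by edgeR = 0.107). In bulk libraries, fewer cells of a type and less RNA per cell cannot be told apart, and the part of these cell types in the results that follow was not tested.

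Upon poly(I:C)c treatment, 190 genes rose (2.29% of those tested) and 89 fell (1.07%), 3.36% in all. The study's threshold was an adjusted p under 0.001 with at least 2-fold change, which the study applied to DESeq2. With edgeR, 20 genes rose (0.241%) and 0 fell at this threshold. Unless DESeq2 is named, genes past the study's threshold are those that edgeR called at it. On the falling side edgeR found 682 genes at an unadjusted p under 0.05, and DESeq2 called 54 falling and 139 rising genes (2.32%) at the study's threshold. All 190 rising and all 89 falling genes were also called, in the same direction, by DESeq2 at an adjusted p under 0.05. DESeq2 called 369 rising and 244 falling genes in all, and edgeR's fit over all 4 PMN groups called 157 and 36. The treated and untreated libraries did not overlap for 1009 of all tested genes (12.1%), and for 189 of the rising and 87 of the falling genes. Of the rising genes 79, and of the falling genes 18, were called again in each of the 8 fits that left out 1 library. Rising genes numbered 106, 123, 88 and 108 without untreated library 1, 2, 3 or 4. Falling genes numbered 26, 47, 22 and 47 without these, and 55 and 56 without treated library 2 or 3. At the study's threshold edgeR called 5, 0, 0 and 2 genes without untreated library 1, 2, 3 or 4 and 7, 13, 31 and 47 without treated library 1, 2, 3 or 4.

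**Figure D2:**
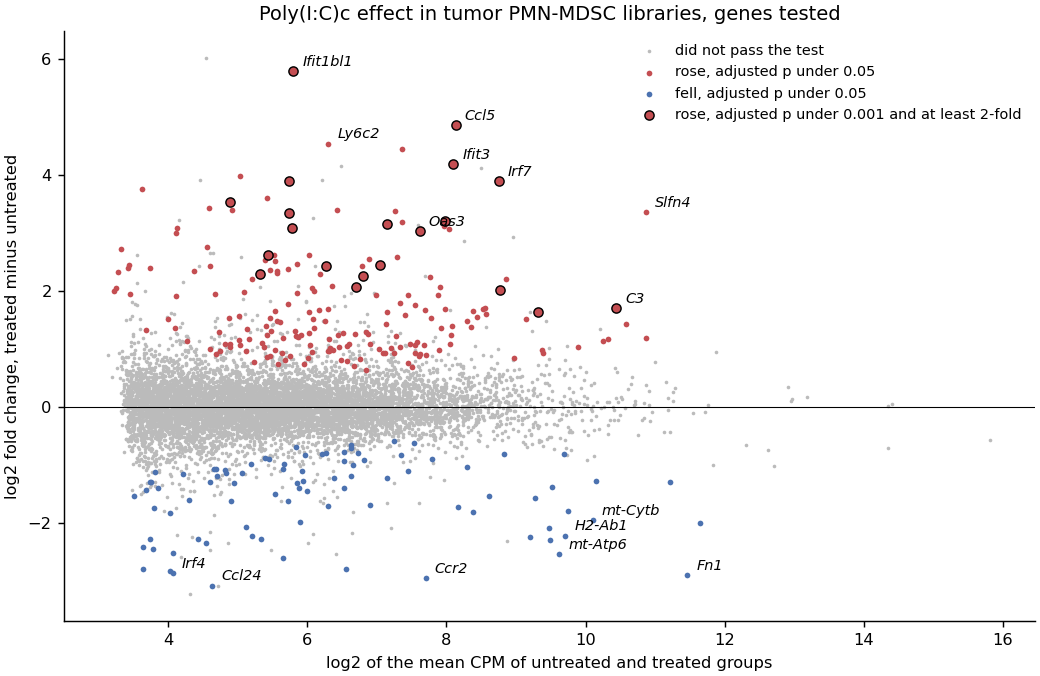
Log2 fold change (treated minus untreated, y axis) against the log2 of the mean CPM of both groups (x axis) for 8308 tested genes in tumor PMN-MDSC libraries. Rising genes (red) reach a log2 fold change of 5.78 (Ifit1bl1) and falling genes (blue) −3.08 (Ccl24). The 20 outlined genes, past the study's threshold in edgeR, are all rising.

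The 20 genes past the study's threshold were Irf7, Ly6a, Ccl5, Oas3, H2-T24, Rtp4, Ifi27l2a, Ifit1bl1, Ifi44, Xaf1, H2-T22, Ifit3, Cmpk2, Oasl1, Ifi208, Lgals3bp, H2-Q6, Ly6e, C3 and Ube2l6. Of these, 13 belong to the lists of interferon sensing, signaling and effector genes, 3 encode MHC class I heavy chains, 1 is a chemokine (Ccl5) and 1 the central complement component (C3), and Ly6a and Ly6e encode GPI-anchored surface proteins of the Ly6 family. Over all interferon lists, 64 of the 125 tested members rose and 1 (Irf4) fell, beside 2.29% and 1.07% of all tested genes. These 2 shares are also the background for the list counts that follow. Lists and members were chosen with earlier results of these data known, so the counts describe the response and are no independent test.

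RefSeq promoter sequences (build GRCm38.p6, 250 bases before to 50 after the gene start, the first entry for each symbol) were searched for letters of the interferon-stimulated response element, GAAA followed by any 2 bases and GAAA, on both strands (TTTC, any 2 bases and TTTC on the other). Of the 190 rising genes 147 had a promoter in the table, and 44 of these held the letters (29.9%). The share was 3.77% of the falling genes (2 of 53), 3.75% of all tested genes (236 of 6299) and 3.49% of all 27025 promoters. The letters of the gamma-activated site, TTC followed by any 3 bases and GAA, which read the same on both strands and may overlap the first motif, were found in 10.2% of the rising, 3.77% of the falling and 6.75% of the tested genes, in 8.47% of all promoters and in 0 of the 14 promoters of genes past the study's threshold. These matches are descriptions of letters, and promoters of one gene family share sequence: the windows of Ifit3 and its close relative Ifit3b read the same.

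The response element letters, in capitals, are shown with 10 bases on either side for genes of different roles that rose, read in the direction of the gene. Only the first match in each promoter is in capitals. Ifit3, Ifit1 and Isg15 held further matches, and in Isg15 the next one overlaps the capitals.
Ifit1bl1, minus strand, chr19:34602053-34602082, letters starting 104 bases before the gene start: actctgtaggTTTCATTTTCtgtaggttgg
Ifit3, plus strand, chr19:34583363-34583392, 156 bases before: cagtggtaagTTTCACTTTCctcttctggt
Ifit1, plus strand, chr19:34640775-34640804, 104 bases before: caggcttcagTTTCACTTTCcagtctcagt
Oas3, minus strand, chr5:120777715-120777744, 75 bases before: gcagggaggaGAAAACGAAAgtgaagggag
Ifi208, plus strand, chr1:173673597-173673626, 58 bases before: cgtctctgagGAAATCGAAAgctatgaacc
Isg15, minus strand, chr4:156200877-156200906, 78 bases before: tatgccgtagGAAAAGGAAAccgaaacaga
Stat2, plus strand, chr10:128270266-128270295, 222 bases before: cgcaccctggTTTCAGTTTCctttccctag
H2-T22, minus strand, chr17:36042914-36042943, 191 bases before: attggcttagTTTCACTTTCgaatccccaa
B2m, plus strand, chr2:122147538-122147567, 139 bases before: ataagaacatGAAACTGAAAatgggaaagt
The genes past the study's threshold that had a promoter in the table held the letters in 5 of 14 cases, and Irf7 was among those without them in this window.

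RNA sensing and interferon signaling genes rose in part. Irf7, the transcription factor that amplifies type I interferon induction (chromosome 7, 141262706 to 141266481), was measured at 52.9, 40.8, 50.9 and 73.8 CPM in untreated and 914, 922, 529.8 and 865 CPM in treated libraries. Every treated library thus lay far above every untreated library, and the log2 fold change was 3.88 ± 0.26 (14.8-fold, adjusted p by edgeR = 9.6e-05). Of 13 tested RNA sensor and MAVS signaling genes 6 rose, and leaving out 1 library gave 4 to 6. Ddx58 (RIG-I) rose from 85.1 ± 15.6 to 255 ± 47.5 CPM (SD, n = 4 each), a log2 fold change of 1.58 ± 0.19 (adjusted p by edgeR = 0.00149). Ifih1 (MDA5) was at 115, 108, 94.6 and 73.3 CPM in untreated and 196, 160.5, 151 and 283 CPM in treated libraries. The groups of Ifih1 did not overlap and its log2 fold change was 1.02 ± 0.23 (adjusted p by edgeR = 0.0351), but the call held in 3 of the 8 fits leaving out 1 library and was lost without any of the untreated libraries or treated library 1. Ddx60 (2.58 ± 0.31), Zbp1, a sensor of Z-form nucleic acids (1.93 ± 0.25), Dhx58 (1.63 ± 0.23) and Eif2ak2, the RNA-dependent kinase PKR (1.05 ± 0.19, called in 6 of these 8 fits), rose on the log2 scale. None of the 8 interferon genes on the list reached the minimum of 25 counts, so they were not tested.

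Of the 14 interferon receptor, JAK and STAT genes Stat2 rose, from 92.8, 76.8, 71.9 and 64.4 CPM to 219, 190.3, 128 and 283 CPM (log2 fold change 1.42 ± 0.23, adjusted p by edgeR = 0.00724). Of 8 interferon regulatory factors Irf7 and Irf9 rose and Irf4 fell, and the call of Irf9 (1.08 ± 0.20) was lost without untreated library 1, 2 or 3. Usp18, which blocks signaling at the interferon receptor, was the member of the 7 feedback inhibitors that rose, at 23.7, 11.6, 10.1 and 15.4 CPM in untreated and 127, 106, 90.7 and 304 CPM in treated libraries (log2 fold change 3.38 ± 0.44, adjusted p by edgeR = 0.00236). All treated libraries exceeded the untreated ones, with treated library 4 the highest.

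The antiviral effector families shifted strongly. Of 6 Ifit genes, whose products bind foreign 5′ ends of RNA, 5 rose, also in each fit leaving out 1 library, with a list median of 3.80 on the log2 scale beside 0.01 over all genes. Ifit1bl1 was near the detection limit in untreated mice (0.623, 4.08, 1.62 and 1.49 CPM) and reached 89.9, 60.0, 83.7 and 203 CPM upon treatment, a log2 fold change of 5.78 ± 0.53 (adjusted p by edgeR = 0.000481). Ifit3 rose from 13.7, 33.2, 26.3 and 41.1 CPM to 428, 397, 337 and 916 CPM (4.18 ± 0.41 on the log2 scale, adjusted p by edgeR = 0.000621). In both genes the groups were separated widely and treated library 4 was the highest. Ifit1 (4.44 ± 0.58), Ifit3b (3.42 ± 0.43) and Ifit2 (3.06 ± 0.35) followed, and because these paralogs share sequence their counts may be split uncertainly among them.

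Of 8 oligoadenylate synthetase and RNase L genes, which degrade RNA upon sensing of double strands, 7 rose (4 without untreated library 3). Oas3, which produces the activator of RNase L, went from 32.4, 44.2, 43.2 and 51.0 CPM to 322, 326, 251 and 498 CPM, a log2 fold change of 3.03 ± 0.24 (adjusted p by edgeR = 0.000137). The lowest treated library was well above the highest untreated one. Oasl1 (3.15 ± 0.32) and Oas2 (1.63 ± 0.20) rose as well. Of the 5 ISG15 conjugation genes 4 rose (2 without untreated library 3), among them Isg15 itself (31.1 ± 10.3 to 133 ± 64.1 CPM, SD, n = 4 each) and Ube2l6, its conjugating enzyme (log2 fold change 2.28 ± 0.26). Of 30 antiviral restriction factors 22 rose (13 without untreated library 3) with a median log2 fold change of 1.48. These included Ifi44 (3.53 ± 0.35), Rsad2, which makes a chain terminator of viral RNA synthesis (3.12 ± 0.35), Cmpk2 (3.08 ± 0.32), Mx2 (2.75 ± 0.41), Ifi27l2a (2.44 ± 0.23), Rtp4 (2.43 ± 0.23) and Bst2, which tethers budding virions (2.31 ± 0.31).

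Of 11 PYHIN genes, a family of nucleic acid sensors on chromosome 1, 7 rose (4 in the fit over all 4 PMN groups, 6 to 8 with 1 library left out), with Ifi208 at 3.88 ± 0.40 and Ifi204 at 2.21 ± 0.28 on the log2 scale. Of 6 Schlafen genes 5 rose (3 without any 1 of the untreated libraries). Slfn4 stood at 168, 382, 349.5 and 428 CPM in untreated and 2198, 2175, 2964 and 6253 CPM in treated libraries, the highest mean CPM among the rising genes with a log2 fold change above 3. Of 9 guanylate-binding proteins 2 rose (Gbp6 and Gbp9) and of 8 immunity-related GTPases 2 rose (Irgm1 and Ifi47), families that are classical targets of interferon gamma. All 8 immunity-related GTPases had positive log2 fold changes (median 0.99), with 7 at an unadjusted p under 0.05, 5 called in DESeq2, 7 without the filter on low counts and 0 in the fit over all 4 PMN groups. Gbp6 rose by 1.28 ± 0.27 on the log2 scale, in 4 of the 8 fits leaving out 1 library, and Gbp9 rose from 87.0 ± 17.6 to 174 ± 8.67 CPM (SD, n = 4 each), in all 8.

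**Figure D3:**
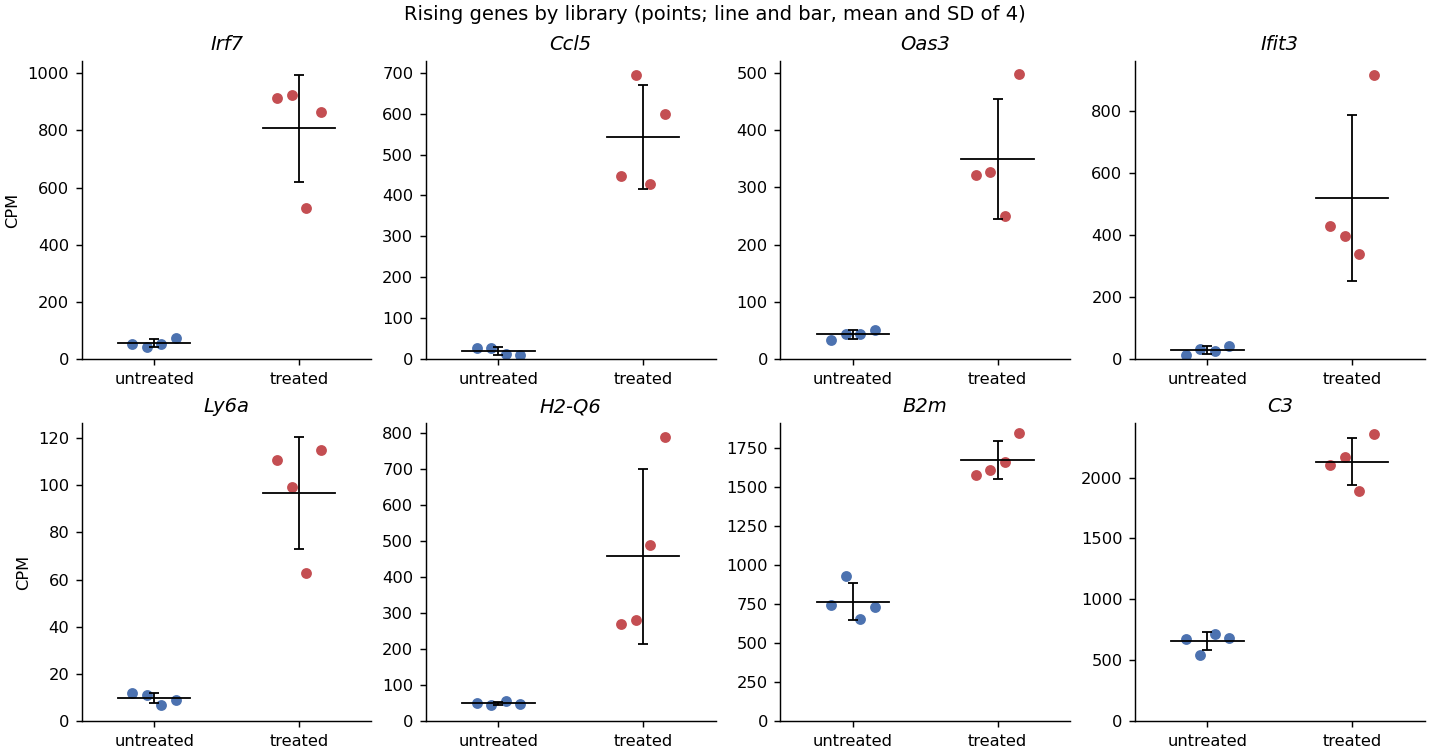
CPM of 8 rising genes in each untreated (blue) and treated (red) tumor PMN-MDSC library, with the mean (line) and SD (bar) of 4 libraries. The genes were chosen with their values known, and in each the lowest treated library lies above the highest untreated library (12.1% of all tested genes do not overlap), for example 529.8 against 73.8 CPM for Irf7 and 429 against 27.4 CPM for Ccl5.

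Genes of antigen presentation moved in opposite directions for the MHC classes I and II. Of 12 tested genes of MHC class I heavy chains and B2m 11 rose, with a median log2 fold change of 1.55 and 9 to 11 calls when 1 library was left out. B2m, the invariant light chain, went from 741, 929, 650.2 and 729.6 CPM to 1576, 1607, 1661 and 1847 CPM (log2 fold change 1.13 ± 0.19, adjusted p by edgeR = 0.00755), a call lost without untreated library 3 (adjusted p = 0.0504). The classical heavy chain H2-K1 went from 843, 779.5, 823 and 884 CPM to 2078, 2124, 2063 and 2637 CPM (1.42 ± 0.19 on the log2 scale, adjusted p by edgeR = 0.00193). Both genes showed close agreement within each group and no overlap between groups. The non-classical heavy chains H2-Q6 (3.20 ± 0.34), H2-T22 (2.26 ± 0.23) and H2-T24 (2.07 ± 0.19) rose more on the log2 scale, although the heavy chain genes are near-identical in parts and reads may be split among them. H2-Q10 did not pass the test (−0.51 ± 0.34).

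Genes that generate and load peptides for the heavy chains came next. Of 10 peptide transport and loading genes Tap1, a subunit of the peptide transporter, and Nlrc5, the transactivator of MHC class I, rose (1.07 ± 0.16 and 0.68 ± 0.16 on the log2 scale), and Nlrc5 was called in 1 of the 8 fits leaving out 1 library. Of 6 immunoproteasome genes Psmb9 rose (0.77 ± 0.18), also called in 1 of these 8 fits. Of 18 constitutive proteasome genes 0 passed edgeR's test in either direction (2 at an unadjusted p under 0.05, 0 in DESeq2), with a median of 0.18.

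MHC class II genes went down. Of 7 tested members 5 fell and 0 rose, with a median log2 fold change of −2.22 beside 0.01 over all genes. Ciita, the master regulator of the class, was measured at 177, 154, 139.8 and 189.7 CPM in untreated and 2.47 to 37.1 CPM (mean 23.4 ± 14.8, SD, n = 4) in treated libraries (log2 fold change −2.79 ± 0.51, adjusted p by edgeR = 0.0188). H2-Ab1, a class II beta chain, stood at 1639, 1256, 1359 and 1260.2 CPM against 348, 472, 290.4 and 73.2 CPM (−2.22 ± 0.44 on the log2 scale, adjusted p by edgeR = 0.0232). No treated library reached any untreated one, and treated library 4 was the lowest in both genes. H2-Eb1 (−2.30 ± 0.44), H2-Aa (−2.24 ± 0.46) and the invariant chain Cd74 (−2.01 ± 0.42) fell likewise on the log2 scale. The calls depended on single libraries: 0 of the 7 genes passed without untreated library 1, untreated library 3 or treated library 3, at 7 of 7 without treated library 4 and 7 of 7 in DESeq2. The summed level of 8 dendritic cell markers, cells that carry much MHC class II, was 337, 366, 386 and 365 CPM of the library total in untreated and 354, 344, 239 and 96.5 in treated libraries, and its part in the result was not tested.

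**Figure D4:**
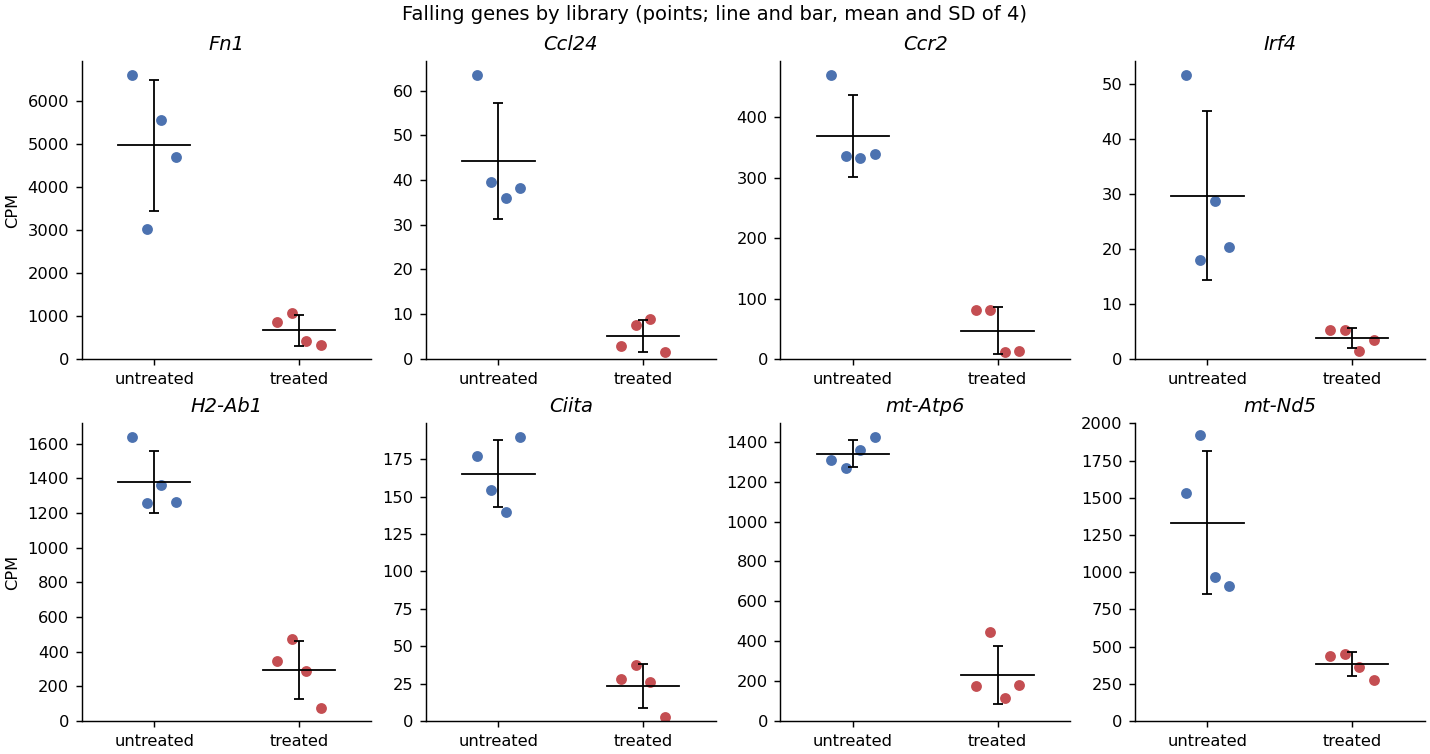
CPM of 8 falling genes in each untreated (blue) and treated (red) tumor PMN-MDSC library, with the mean (line) and SD (bar) of 4 libraries. The genes were chosen with their values known, and in each the groups do not overlap (12.1% of all tested genes do not), as for mt-Atp6, where the lowest untreated library is at 1269 CPM and the highest treated library at 447 CPM.

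Among chemokines and their receptors single genes stood out. Ccl5, a ligand that attracts T and NK cells (chromosome 11, 83525778 to 83530518), went from 27.4, 27.4, 12.5 and 8.92 CPM to 448, 695, 429 and 599 CPM, a log2 fold change of 4.85 ± 0.37 (28.9-fold, adjusted p by edgeR = 0.000137). Cxcl13, a ligand for B cells, rose from 3.63 ± 2.26 to 30.9 ± 3.46 CPM (SD, n = 4 each; log2 fold change 2.99 ± 0.35). Ccl5 and Cxcl13 were the rising members among 10 CC and 8 CXC ligands. Cxcl10, a ligand of Cxcr3, was at 101 ± 28.1 and 131 ± 70.6 CPM (SD, n = 4 each) and did not pass the test (log2 fold change 0.38 ± 0.33, adjusted p by edgeR = 0.598). Ccl24, an eosinophil attractant typical of alternatively activated macrophages, fell from 63.5, 39.6, 36.0 and 38.1 CPM to 2.85, 7.63, 8.88 and 1.48 CPM, a log2 fold change of −3.08 ± 0.43 (adjusted p by edgeR = 0.00302). It was called in all 8 fits leaving out 1 library. Cxcl1, a neutrophil attractant, fell by 1.41 ± 0.31 on the log2 scale and was called in 2 of these 8 fits.

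Ccr2, the receptor that guides monocytes out of the bone marrow, was measured at 470.3, 335, 332 and 339.8 CPM in untreated and 81.4, 80.6, 12.2 and 13.3 CPM in treated libraries. Treated libraries 1 and 2 kept clearly more Ccr2 than treated libraries 3 and 4, while all 4 were below the untreated range. Its log2 fold change of −2.95 ± 0.61 (adjusted p by edgeR = 0.0367) was called in 2 of the 8 fits leaving out 1 library, those without treated library 1 or 3. Fn1 (fibronectin; chromosome 1, 71585520 to 71653200), abundant in monocyte-derived cells, went from 6621, 3020.2, 5567 and 4697 CPM to 855, 1069.7, 410.1 and 325 CPM. This was a log2 fold change of −2.90 ± 0.42 (adjusted p by edgeR = 0.00337), called in all 8 of these fits. Ly6c2, part of the Ly6C antigen, moved in the opposite direction, from 3.11, 8.73, 11.3 and 1.98 CPM to 129.8, 124, 69.2 and 282 CPM (log2 fold change 4.53 ± 0.57, adjusted p by edgeR = 0.00247). Ly6C was used in the sort, with PMN-MDSC taken from the low gate.

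Of other cytokines and growth factors 4 of 12 tested members fell and 0 rose (in edgeR and in DESeq2; 0 at an unadjusted p under 0.05 on the rising side). Il6 (−2.07 ± 0.48), Lif (−1.98 ± 0.43), the epidermal growth factor receptor ligand Areg (−2.35 ± 0.53) and osteopontin, Spp1 (−1.04 ± 0.25), fell on the log2 scale. Without untreated library 1, 2 or 3, or without treated library 1, 0 of these passed the test, and in the fit over all 4 PMN groups 2 members of the list fell. Il18bp, the decoy of IL-18, rose by 1.65 ± 0.23 on the log2 scale. Tnfsf10, the death ligand TRAIL, rose from 3.77 ± 0.857 to 14.9 ± 5.35 CPM (SD, n = 4 each) and was called in 3 of the 8 fits leaving out 1 library.

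Among 19 tested genes of T cell suppression and checkpoints, Wfdc17 rose and Ptgs2, Nt5e and Slc7a2 fell, whereas the fit over all 4 PMN groups called 0 genes of the list. Ptgs2, the inducible cyclooxygenase, went from 3382 ± 703 to 1370.2 ± 569.9 CPM (SD, n = 4 each), and Nt5e, the ectonucleotidase CD73 that makes adenosine, from 61.7, 60.0, 78.4 and 74.3 CPM to 32.6, 26.9, 25.7 and 10.9 CPM. Slc7a2, a carrier of cationic amino acids such as arginine, fell by 0.93 ± 0.21 on the log2 scale. Ptgs2 and Slc7a2 were each called in 2, Wfdc17 in 3 and Nt5e in 6 of the 8 fits leaving out 1 library, and without untreated library 3 or 4 none of the 4 genes passed. Nos2 (inducible nitric oxide synthase) was at 9.34, 8.15, 6.47 and 12.9 CPM against 13.5, 32.2, 62.2 and 449.8 CPM, and did not pass edgeR's test (3.91 ± 1.20 on the log2 scale, adjusted p = 0.15) but passed in DESeq2 (adjusted p = 0.00439). Its treated mean rested on treated library 4. Cd274 (PD-L1) was at 264 ± 54.5 and 371 ± 148 CPM (SD, n = 4 each; adjusted p by edgeR = 0.389), and the costimulatory ligand Cd86 at 174, 92.0, 171 and 77.8 CPM in untreated and 90.2, 79.6, 59.8 and 35.6 CPM in treated libraries (adjusted p by edgeR = 0.163).

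Genes of neutrophil function changed in small numbers. Of 20 neutrophil surface and chemoattractant receptors 3 rose, among them Fcgr4, an activating Fc receptor, and Fpr1, the formyl peptide receptor, by 1.09 ± 0.17 and 2.29 ± 0.51 on the log2 scale. Fcgr4 was called in all 8 fits leaving out 1 library, and Fpr1 in 3 of them. Of 9 secondary granule genes 0 passed edgeR's test (4 at an unadjusted p under 0.05, 3 in DESeq2), although all 9 log2 fold changes were positive with a median of 1.47. Mmp8, neutrophil collagenase, illustrates the spread: 13.7, 45.4, 79.6 and 16.3 CPM in untreated and 124, 353, 201 and 2059 CPM in treated libraries, with treated library 4 far above the others (adjusted p by edgeR = 0.112, DESeq2 adjusted p = 0.0016). Of the 7 tertiary granule genes 0 passed edgeR's test as well (3 at an unadjusted p under 0.05, 3 in DESeq2), and none of the 6 primary granule genes reached the minimum of 25 counts. Ly6g was at 0, 1.75, 9.29 and 0.991 CPM in untreated and 10.4, 26.9, 5.14 and 87.5 CPM in treated libraries, with overlapping groups (log2 fold change 3.23 ± 1.09, adjusted p by edgeR = 0.167).

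Other rising genes of innate sensing included Tlr7 (35.8 ± 9.36 to 84.6 ± 23.1 CPM) and Tlr13 (148 ± 39.6 to 392 ± 179.5 CPM, SD, n = 4 each), endosomal receptors of single-stranded and of ribosomal RNA, among 11 Toll-like receptors. Casp1 (log2 fold change 1.03 ± 0.21), the inflammasome protease, rose among 10 inflammasome genes. These 3 were called in 5, 3 and 4 of the 8 fits leaving out 1 library. Complement and Ly6 genes were grouped after their values were seen. C3 rose from 674, 545, 718 and 683 CPM to 2107, 2167, 1888 and 2357 CPM (log2 fold change 1.70 ± 0.19, adjusted p by edgeR = 0.000847) and Cfb, which forms the alternative convertase with it, by 2.53 ± 0.36 on the log2 scale. Both were called in each of the 8 fits.

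Mitochondrially encoded mRNAs, also grouped after their values were seen, were lower in treated libraries. All 13 had negative log2 fold changes (median −1.82) and 6 fell: mt-Nd1, mt-Nd2, mt-Nd4 and mt-Nd5 of complex I, mt-Cytb of complex III and mt-Atp6 of the ATP synthase. mt-Atp6 went from 1309, 1269, 1358 and 1427 CPM to 175, 447, 117 and 181 CPM (log2 fold change −2.54 ± 0.37, adjusted p by edgeR = 0.00385). mt-Nd5 went from 1535, 1919, 968 and 909 CPM to 437, 452, 365 and 278 CPM, so untreated libraries 1 and 2 were higher than untreated libraries 3 and 4 (−1.80 ± 0.28 on the log2 scale, adjusted p by edgeR = 0.00522). Leaving out 1 library gave 5 to 8 calls, DESeq2 gave 8, and the fit over all 4 PMN groups called 1 of the 13 (mt-Nd3). Together these mRNAs took 1.46, 1.96, 0.859 and 0.848% of all counts in untreated and 0.327 to 0.638% in treated libraries. Untreated libraries 1 and 2, with the highest shares, also had the highest sums of tumor epithelium markers (898 and 588 CPM of the library total, against 201 and 275 in the other two and 168 to 239 in treated libraries). The same held for 11 pancreatic acinar markers (105 and 234, against 60.7 and 27.5, and 20.5 to 50.4 in treated libraries). The part of these markers in the result was not tested. The mitochondrial rRNAs took 6.31 to 13.3% and 5.63 to 6.92%, and the log2 fold changes of mt-Rnr1 (−0.70, adjusted p by edgeR = 0.341) and mt-Rnr2 (−0.58, adjusted p by edgeR = 0.354) did not pass the test. Ribosomal RNA was depleted during library preparation, and the part of depletion in these shares was not tested. The part of the rRNA share in the mRNA result was not tested either. Of 23 nuclear genes of oxidative phosphorylation 0 passed edgeR's test in either direction (4 at an unadjusted p under 0.05, all rising, 0 in DESeq2), with a median of −0.01. Nuclear copies of mitochondrial genes such as Gm10222, which fell too (−1.70 ± 0.34), share reads with them.

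Few genes of the metabolism and stress lists passed the test. Among 18 glycolysis genes 0 passed edgeR's test (7 at an unadjusted p under 0.05 and 3 in DESeq2, all rising), 17 of 18 log2 fold changes were positive and the median was 0.47. Of 16 genes of iron, heme and redox defence 0 passed edgeR's test (5 higher and 1 lower at an unadjusted p under 0.05, 4 and 1 in DESeq2). Of 8 sterol synthesis genes 0 passed (3 lower at an unadjusted p under 0.05, 1 in DESeq2), with 7 negative log2 fold changes. Of 17 hypoxia genes 0 passed (1 higher and 2 lower at an unadjusted p under 0.05, 1 and 1 in DESeq2). Of 15 ribosome biogenesis genes 0 passed (2 lower at an unadjusted p under 0.05, 0 in DESeq2). Among 30 cytosolic ribosomal protein genes 0 passed (2 at an unadjusted p under 0.05 and 0 in DESeq2), with a median of −0.22, and among 14 cell cycle genes 0 passed by either count, with a median of −0.02. Ddit3 (CHOP) rose among 15 genes of the unfolded protein response (1.68 ± 0.39 on the log2 scale, called in 2 of 8 fits leaving out 1 library), and Egr2 fell among 19 immediate early and heat shock genes (−1.11 ± 0.24, called in 3 of 8).

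Among the remaining genes with the largest decreases were Irf4, which fell from 29.7 ± 15.4 to 3.84 ± 1.83 CPM (SD, n = 4 each; log2 fold change −2.86 ± 0.43, adjusted p by edgeR = 0.00424), Plcb1 (−2.82 ± 0.41), a phospholipase C, Dcstamp (−2.80 ± 0.62), which mediates fusion of osteoclast precursors, the endothelin receptor Ednrb (−2.53 ± 0.34), Kbtbd11 (−2.45 ± 0.41) and Kmo, kynurenine monooxygenase (−2.42 ± 0.35). Irf4, Plcb1 and Ednrb were called in all 8 fits leaving out 1 library, Kbtbd11 in 7, Kmo in 4 and Dcstamp in 3. Cdh1 (E-cadherin) fell from 149, 109, 36.8 and 50.5 CPM to 19.2, 14.6, 12.2 and 8.90 CPM (−2.61 ± 0.44 on the log2 scale, adjusted p by edgeR = 0.0108), called in all 8 of these fits. It belongs to the tumor epithelium markers, whose summed level was 898, 588, 201 and 275 CPM of the library total in untreated and 239, 201, 221 and 168 in treated libraries, so that untreated libraries 1 and 2 held the most. Krt8 (129 ± 98.8 to 43.2 ± 20.3 CPM) and Krt18 (112 ± 86.0 to 47.2 ± 11.9 CPM, SD, n = 4 each) did not pass edgeR's test (adjusted p = 0.214 and 0.225), and DESeq2 gave Krt8 an adjusted p of 0.043. Among rising genes outside the lists above, the stefin gene Stfa2l1 (3.97 ± 0.66), its relative Gm5483 (3.60 ± 0.76) and Gm6545 (3.74 ± 0.51) had the largest log2 fold changes, with Gm5483 called in 2 of the 8 fits and the other two in 7 each.

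**Figure D5:**
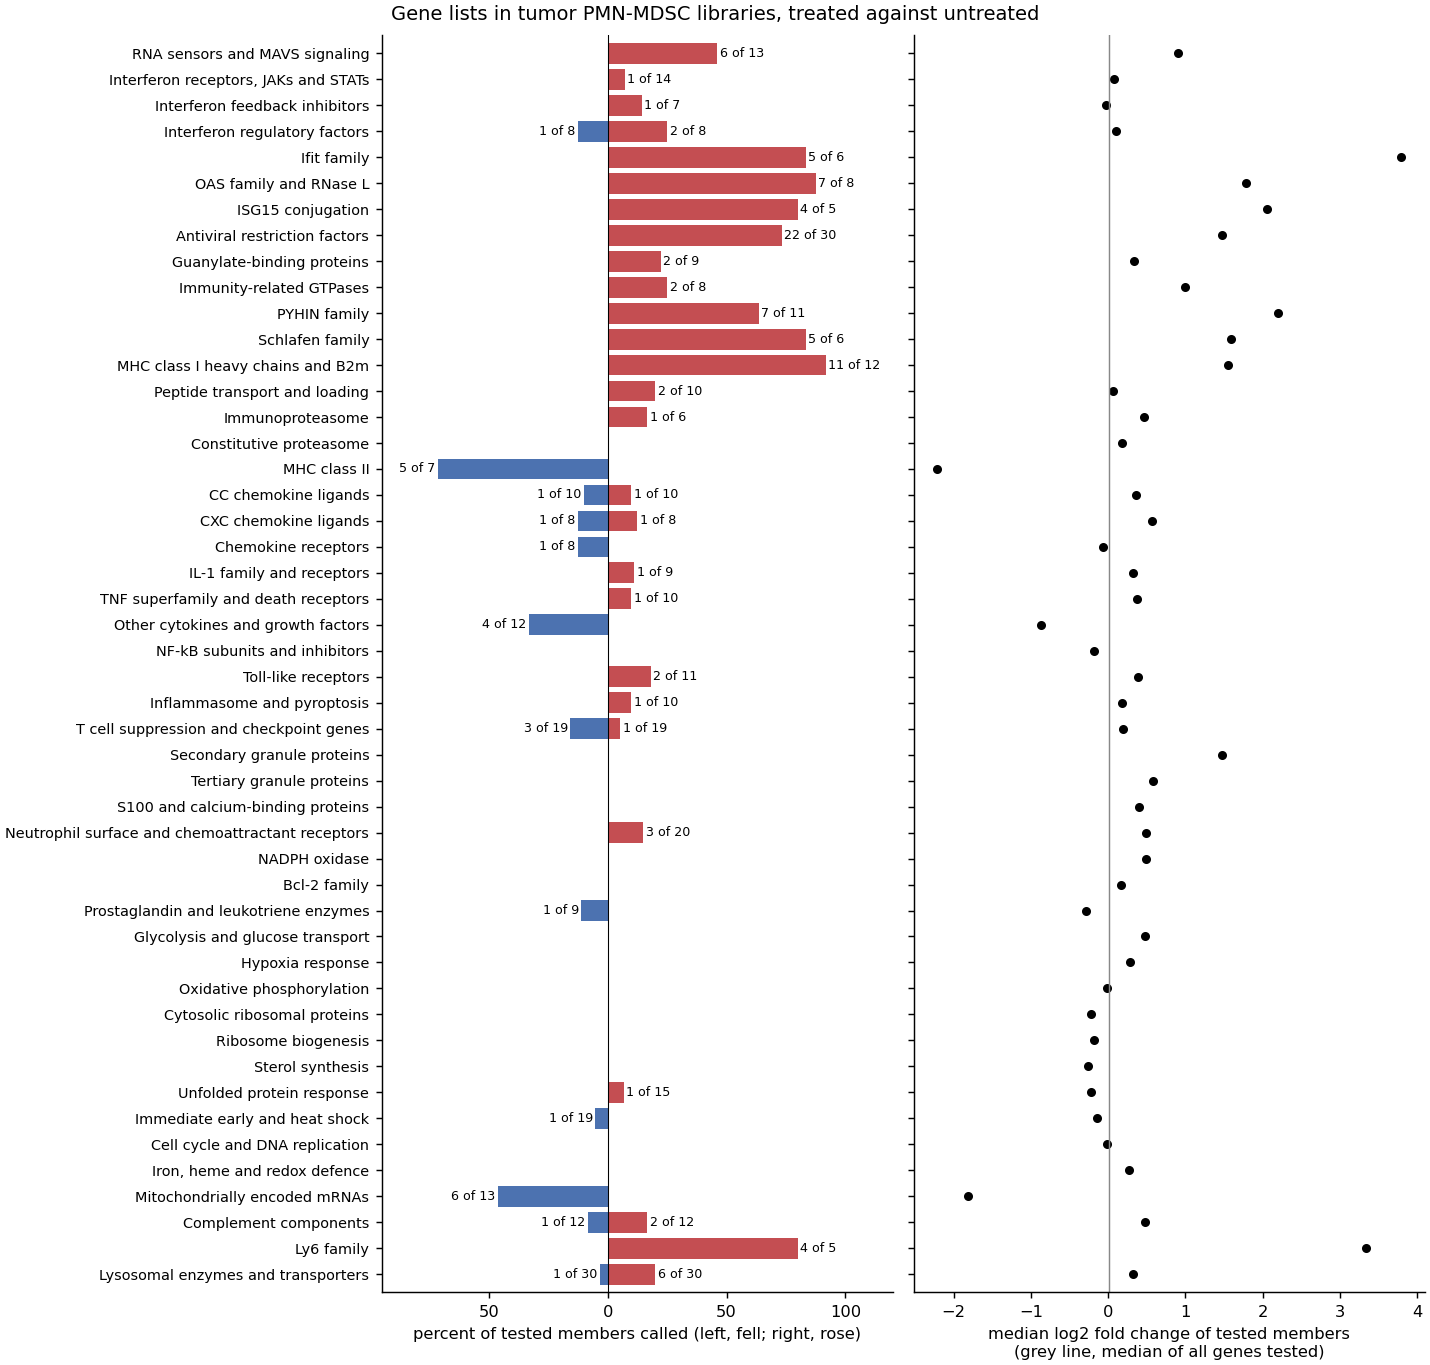
Left, percent of the tested members of each gene list that rose (red, to the right) or fell (blue, to the left) in treated tumor PMN-MDSC libraries, with the counts. Right, median log2 fold change of the tested members beside the median of all genes (0.01, grey line): the Ifit (3.80) and Ly6 (3.34) lists lie highest, and MHC class II (−2.22) and the mitochondrially encoded mRNAs (−1.82) lowest.

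The response was then set against that of spleen PMN-MDSC (7 libraries, 4 untreated and 3 treated) by the interaction of treatment and organ over 8047 genes. The sample titles share mouse numbers between organs and populations, so libraries compared here came largely from the same mice, but the columns do not name the mouse and the fits were unpaired. The log2 fold change was more positive in tumor for 255 genes (3.17%) and less positive for 27 (0.336%). Of the 255 genes 162 fell in spleen PMN-MDSC and 11 rose in tumor PMN-MDSC. In spleen PMN-MDSC itself 6.1% of 7261 tested genes rose and 5.52% fell, by a fit that shares its libraries with the interaction. The 255 genes included 7 of the 12 macrophage and monocyte markers, such as Adgre1 (0.00 in tumor, −2.61 in spleen) and Mrc1 (−0.83 in tumor, −5.14 in spleen). Ccl5 rose more in tumor than in spleen (4.85 against 2.59, difference 2.28 ± 0.57, adjusted p by edgeR = 0.0382). All 20 genes past the study's threshold in tumor also rose in spleen PMN-MDSC (6.1% of genes tested there rose), and Ccl5 was the one among them whose responses differed by this test. Of the 27 genes with the smaller response in tumor 23 rose in spleen, and 7 belonged to the interferon lists: Gbp6 (1.28 in tumor, 4.77 in spleen), Tgtp1 (1.42, 5.03), Ifi206 (3.37, 6.57), Ifi211 (2.55, 5.32), Ifit2 (3.06, 5.58), Parp12 (1.29, 2.79) and Ikbke (0.73, 2.75). Irf8 was the interferon-list gene with the more positive response in tumor. The 27 genes became 9 to 55 with 1 tumor library left out (10, 10, 9 and 17 without untreated library 1 to 4, 10, 9, 15 and 55 without treated library 1 to 4), 4 with at least 10 counts in every library and 105 in DESeq2. The 282 genes in all became 45 when at least 10 counts were required in every library. They became 148 and 144 without tumor treated library 1 or 2, and 180, 160 and 181 without tumor untreated library 2, 3 or 4.

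Against tumor M-MDSC (7 libraries, 4 untreated and 3 treated, after a treated library of 10 counts was left out) the interaction of treatment and cell type called 2 of 8385 genes (0.0239% less positive in PMN-MDSC, 0% more positive). These were Ccnd2, cyclin D2 (0.06 in PMN-MDSC and 1.81 in M-MDSC, difference −1.75 ± 0.28), and P2ry14, a receptor of nucleotide sugars (0.20 and 2.66, difference −2.45 ± 0.39), both with an edgeR adjusted p of 0.0467. In the more positive direction 0 genes were called by edgeR (366 at an unadjusted p under 0.05, 12 in DESeq2), and with any 1 of the tumor PMN-MDSC libraries left out 0 genes were called in either direction. Of the 20 genes past the study's threshold in tumor PMN-MDSC 13 also rose in tumor M-MDSC (1.82% of the 8360 genes tested there rose and 1.06% fell), with a median log2 fold change of 2.46 there, and 0 differed between the populations in edgeR.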

How the data were processed

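RNA of FACS-sorted cells was sequenced with a stranded total RNA kit without molecular identifiers. According to the study's methods the authors aligned reads with ContextMap and BWA to GRCm38 (mm10) and counted them strand-specifically with featureCounts (Subread 1.4.6-p3, from the submitters' processing notes) on a Gencode annotation. The deposited values are raw read counts per gene. Column names give the group and a running number, and libraries are named by their order. Genes were named with GENCODE identifiers (53274 of 53379 matched). Genes averaging 25 counts or more in these 8 libraries were fitted with edgeR 4.0.16 (R 4.3.3; TMM, robust quasi-likelihood F-test, two-sided, Benjamini-Hochberg adjustment over all tested genes), and DESeq2 1.42.0 (Wald test) served as an alternative. Alternatives also covered scaling, filters on low counts, a fit over all 4 PMN groups and each library left out. An added alternative, chosen after the data were seen, blocked on the running number (up to 16 and from 17). Marker sums use CPM of the library total. On simulated counts the test found 99% of genes changed 4-fold and 49.5% of those changed 2-fold (8284 genes, 8 false calls). The simulation gave each gene the trended spread of its level and no library that stood apart. These shares therefore do not carry over to genes with a wider spread, such as Nos2 and Mmp8, which did not pass edgeR's test. Precision is limited by 4 libraries per group, and p-values measure the spread between these libraries. Values are given per library because the depth of 1648775 to 3652121 counts leaves low genes with few counts. The spleen and tumor M-MDSC comparisons were fits of the interaction over 4 groups each.

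Genes named are the 12 top and 12 bottom genes by log2 fold change among those called, changed at least 2-fold and not overlapping between groups, the 3 smallest p of each list, 10 fixed genes (among them Ifih1, Cd274, Nos2, B2m, Tap1, Cd86, Ly6g, Krt8 and Krt18), the 5 smallest interaction p in each direction, and list members given as examples. Members, lists and tests were chosen with earlier results of these data known. Some genes that the rule names are not reported here.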

Additional observations from a re-analysis of the deposited data

Results flagged for a closer look

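In the 68 groups of 4 libraries checked (34 genes, untreated and treated), 9 held a library farther from the others than Dixon's 95% critical value allows, and chance flags about 1 in 20 groups. Treated library 4 was the high library for Ifit1 (743 CPM), Ifit3 (916 CPM), Ifi208 (184 CPM), Ifit3b (79.6 CPM), Nos2 (449.8 CPM) and Tap1 (288 CPM). Treated library 3 was the low library for Irf7 (529.8 CPM). Untreated library 1 was the high library for Ccl24 (63.5 CPM) and Ccr2 (470.3 CPM).

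The treatment effect differed between tumor and spleen PMN-MDSC, by the interaction test, for 282 genes, of which 11 are given here. They are the 5 genes with the smallest p in each direction and Ccl5. Other genes named in the report, such as Ifit2, Mrc1 and Nr1h3, were called by this test too. On the log2 scale the effect in tumor minus that in spleen was 3.19 for Peak1, 3.82 for Dnase1l3, 3.56 for Tspan3, 1.97 for Pkd1 and 2.63 for Fam102b. It was −2.14 for Ifrd1, −3.48 for Gbp6, −3.46 for Cxcl10, −3.09 for Phf11c and −0.94 for Tnfaip8, and 2.28 for Ccl5. Peak1, Pkd1 and Fam102b fell in spleen (−3.21, −2.29 and −2.68) and had log2 fold changes of −0.05, −0.35 and −0.08 in tumor. Dnase1l3, a DNase secreted by macrophages and dendritic cells, rose in tumor (1.77) and fell in spleen (−2.02). Cxcl10 and Ifrd1 rose in spleen (3.82 and 1.63) and had log2 fold changes of 0.38 and −0.53 in tumor. Against tumor M-MDSC the difference was −1.75 for Ccnd2 and −2.45 for P2ry14.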

How the results depend on the processing

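Counts past the study's threshold (20) were 193 with DESeq2, 33 with upper-quartile scaling, 314 with no filter on low counts, 46 with the block on the running number, 223 at an adjusted p under 0.05 with at least 2-fold change, and 0 to 47 with 1 library left out. Rising genes (190) numbered 369 with DESeq2, 526 without the filter, 308 with the block and 88 to 190 with 1 library left out. Falling genes (89) numbered 244 with DESeq2, 338 without the filter, 36 in the fit over all 4 PMN groups, 246 with the block and 22 to 86 with 1 library left out. Genes whose response differed from spleen PMN-MDSC (282) numbered 501 with DESeq2, 45 with at least 10 counts in every library and 144 to 376 with 1 tumor PMN-MDSC library left out (no spleen library was left out). Genes that differed from tumor M-MDSC (2) numbered 22 with DESeq2 and 0 with any tumor PMN-MDSC library left out (no M-MDSC library was). The causes were not tested. No called gene among those named changed direction under any of these settings. No paired analysis was possible because treated and untreated mice share no number and, although titles share mouse numbers between organs and populations, the columns carry no mouse number, so the comparisons with spleen PMN-MDSC and tumor M-MDSC could not be blocked on the mouse. The order of the columns follows that of the sample titles, but mice were not assigned from this order. A fit blocked on the mouse was therefore not run, and the part of shared mice in the 282 and 2 genes was not tested. Genes averaging under 25 counts were not tested.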

Other observations

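Further called genes are given singly, chosen after their values were seen. Nr1h3, the oxysterol receptor LXR alpha, rose from 19.9, 13.4, 11.7 and 17.8 CPM to 102, 99.1, 55.2 and 59.3 CPM (log2 fold change 2.34 ± 0.27, adjusted p by edgeR = 0.00111). Siglec1, a sialic acid receptor of macrophages, rose by 1.60 ± 0.27, the scavenger receptor Marco by 1.94 ± 0.36, Gpnmb by 2.37 ± 0.33 and Cd300e by 3.07 ± 0.46 on the log2 scale. The macrophage and monocyte marker sum was likewise higher in treated libraries 1 and 2 (20211 and 20930 CPM of the library total) than in 3 and 4 (13568 and 8574), the order seen for Nr1h3 between these pairs, and its part in these results was not tested. Marco was called in 5 of the 8 fits leaving out 1 library and the other 4 in all 8. Of 30 lysosomal enzymes and transporters, a list also drawn up after the values were seen, 6 rose and 1 fell. Leaving out 1 library gave 2 to 6 rising genes, with 3, 2, 2 and 2 without untreated library 1 to 4 and 3 without treated library 1 or 2, and the fit over all 4 PMN groups gave 2. Ctsd, the protease cathepsin D, went from 449 ± 50.9 to 879.8 ± 32.4 CPM (SD, n = 4 each; adjusted p by edgeR = 0.00864), and Naaa, a lysosomal amidase, fell by 1.22 ± 0.17 on the log2 scale. The acute phase gene Saa3 stood at 24.9, 17.5, 23.8 and 64.4 CPM in untreated and 215, 139.6, 168 and 667 CPM in treated libraries (adjusted p by edgeR = 0.0298) and was called in 4 of the 8 fits.

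Some falling genes outside the lists are given singly, also chosen after their values were seen. Of the 12 tested NF-kB subunits and inhibitors 0 passed edgeR's test (1 higher and 2 lower at an unadjusted p under 0.05, 1 falling in DESeq2). Malt1, a protease of the NF-kB pathway, went from 637, 398, 459 and 259.6 CPM to 132, 130.3, 110.3 and 159.6 CPM (log2 fold change −1.72 ± 0.26, adjusted p by edgeR = 0.00386). The transcription factors Nr4a3 (−1.38 ± 0.27) and Prdm1 (−1.28 ± 0.27) and the surface protein Cd83 of mature antigen-presenting cells (−1.54 ± 0.35) fell on the log2 scale. Malt1 was called in all 8 fits leaving out 1 library, Nr4a3 in 5, Prdm1 in 3 and Cd83 in 1. Il1b was at 5746, 8414, 8513 and 8906 CPM in untreated and 2808, 2864, 6991 and 6289 CPM in treated libraries, so that the groups overlapped and the difference did not pass the test (adjusted p by edgeR = 0.283).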
